A study of Mus musculus with 1037 samples.

Results

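Epithelial cells of the outer root sheath (ORS) sit on a basement membrane through hemidesmosomes and integrins, and the 9 genes described here encode that attachment: *Itga6*, *Itgb4*, *Itgb1*, *Itga3*, *Col17a1*, *Dst*, *Plec*, *Lama3* and *Lamb3*. They were chosen by name, through the Ensembl identifier of each row, and all 9 were found among 55335 genes of the count table. The rule itself used no measured level.

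In a hemidesmosome, integrin α6β4 (*Itga6*, *Itgb4*) and the transmembrane collagen XVII (*Col17a1*) bind laminin-332 outside the cell, and plectin (*Plec*) and dystonin (*Dst*, whose epithelial form is BP230) link them to keratin filaments inside. *Lama3* and *Lamb3* encode the α3 and β3 chains of laminin-332. Integrin α3β1 (*Itga3*, *Itgb1*) binds the same laminin but is tied to actin. In hair follicle stem cells (HFSCs), integrin α6 is a standard surface marker for sorting, and collagen XVII is known for keeping the stem cells in their niche.

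All cells came from the skin of wild-type mice and were labelled as hair follicle epithelial cells. LOS was the lower ORS of late anagen (AnaVI), and MOS and UOS both carried the region label upper-middle ORS at AnaVI. The P17f plates came from the upper ORS in CatVI, in mid-late catagen, the regression phase of the hair cycle. Their titles split them into PhagoHFSC and NonPhagoHFSC and into alive and apop. OSalive and OSapop came from the upper ORS in CatVII, late catagen. All laboratory mice were between 2 and 10 weeks old, and no age is given per group beyond the P17 in those titles. The sources used here do not explain the letter f and do not state the gate behind Phago. By the sort scheme for anagen and catagen cells, Sca1-positive and lineage-positive cells were removed, CD34+ Itga6+ cells were kept and annexin V marked apoptotic cells, so *Itga6* encodes a protein on which the cells were selected. Cells of several animals were pooled at each stage and no animal is named. Each group is therefore 1 sample, no test between groups was made, and stage, region label, sort and plate cannot be told apart.

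Of 1036 cells with counts, 463 cells in 9 groups had the minimum of 2000 detected genes: 39 in LOS, 38 in MOS, 19 and 9 in P17f Phago alive plates 1 and 2, 15 in P17f Phago apop, 14 in P17f NonPhago apop and 92 in OSapop, with the rest in UOS and OSalive, where 83.6% and 80.1% of all sorted cells passed. The 2 P17f NonPhago alive plates had none. Among passing cells, 50 well names occurred more than once in OSalive, 26 in OSapop and 23 in UOS. No well name was repeated in the other groups, and the labels do not explain the repeats. Summed gene counts ran from 1840012 in P17f NonPhago apop to 287377663 in OSalive, and the deepest cell gave 31.8% of the counts of Phago alive plate 2 and 26.9% of those of LOS. Levels are in CPM, a gene's summed count scaled to 1000000 gene counts of its group, and intervals at 95% are exact limits of counting error only. No molecular identifiers were used, so copies of 1 molecule can be counted more than once. All 9 genes of a list of ORS and bulge markers had counts in every group, but *Cd34* RNA, whose protein was part of the gate, stood at 80.6 CPM in UOS and 111.1 CPM in OSalive and at 1.46 to 9.7 CPM in the P17f plates. The 4 fibroblast markers summed to 1352 CPM in LOS, 345.6 CPM in UOS, 186.1 CPM in OSalive and 4.0 to 45.9 CPM in the P17f plates. Suprabasal and inner layer markers summed to between 63.9 CPM in MOS and 616.0 CPM in Phago apop.

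The genes lie on chromosomes 1 (*Dst* from 33946918 to 34347742, *Lamb3* from 192890007 to 193027705), 2 (*Itga6*, 71575960 to 71689757), 8 (*Itgb1*, 129411876 to 129460618), 11 (*Itga3*, 94935296 to 94967682, and *Itgb4*, 115865333 to 115899239), 15 (*Plec*, 76055174 to 76116774), 18 (*Lama3*) and 19 (*Col17a1*, 47634783 to 47680533) of GRCm39. The canonical transcripts of the GENCODE annotation ran from 4413 bases for *Itga6* to 23201 bases for *Dst*. The epithelial transcript of *Dst* is shorter than that, so its level per length is likely understated. Protein-coding neighbours overlap *Itgb4* (*Galk1*), *Dst* (*Bend6*) and *Lamb3* (*Hsd11b1*, *G0s2*) on the opposite strand and *Plec* (*Parp10*) on the same strand. The library kit does not mark strand, so reads from such overlaps cannot be assigned with certainty.

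Promoters, taken as the 250 bases before the canonical transcript start on the gene's own strand, are shown for *Itgb4*, *Itga3* and *Col17a1*, whose levels are described in most detail below. Capitals mark matches to the AP-1 core TGANTCA or the GC box GGGCGG on either strand, and *Col17a1* has neither.
Itgb4: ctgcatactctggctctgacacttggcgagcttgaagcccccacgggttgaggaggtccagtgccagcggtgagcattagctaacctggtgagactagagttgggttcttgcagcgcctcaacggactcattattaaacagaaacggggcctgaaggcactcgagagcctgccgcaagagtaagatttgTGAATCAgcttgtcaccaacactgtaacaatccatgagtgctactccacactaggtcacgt
Itga3: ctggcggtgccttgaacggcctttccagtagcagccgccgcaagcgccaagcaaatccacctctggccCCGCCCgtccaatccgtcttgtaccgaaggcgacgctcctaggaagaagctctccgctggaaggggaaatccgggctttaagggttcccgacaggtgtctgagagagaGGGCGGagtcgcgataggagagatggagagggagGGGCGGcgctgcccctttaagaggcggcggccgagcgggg
Col17a1: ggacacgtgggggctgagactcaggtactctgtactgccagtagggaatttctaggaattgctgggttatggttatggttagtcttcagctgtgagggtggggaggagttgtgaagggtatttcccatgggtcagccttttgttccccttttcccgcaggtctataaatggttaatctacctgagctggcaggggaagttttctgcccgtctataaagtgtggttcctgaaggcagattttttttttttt
These windows are chr11:115865083-115865332 on the plus strand, chr11:94967645-94967894 on the minus strand and chr19:47680534-47680783 on the minus strand of GRCm39. The AP-1 core occurred in *Itgb4*, 61 bases before the start, and farther upstream in *Dst*, and in 6.18% of 21757 promoters of protein-coding genes. A GC box occurred in *Itga3*, *Itga6*, *Dst*, *Itgb1* and *Plec*, and in 36.3% of all promoters. None of the 9 windows held the retinoid receptor repeat, AGGTCA followed by AGGTCA with 2 bases between them, or the p63 core, CATG followed by CATG with 6 bases between them, which were present in 0.00919% and 0.409% of all promoters. A match is only a match of letters. Further annotated starts of the genes were not searched.

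The 9 genes together took 0.321% of all gene counts in OSalive, 0.340% in OSapop, 0.267% in UOS, 0.256% in MOS and 0.106% in LOS. In CatVI their share was 0.176% and 0.133% in Phago alive plates 1 and 2, 0.104% in Phago apop and 0.112% in NonPhago apop. Of the 9 genes, 6 had their highest level in a CatVII group, namely *Itgb4*, *Col17a1*, *Dst*, *Plec*, *Lama3* and *Lamb3*. The exceptions were *Itga6* and *Itga3*, highest in MOS, and *Itgb1*, highest in Phago alive plate 1. In MOS, 1 cell gave 34.6% of the *Itga6* counts. Over single cells the *Itga6* median was 56.5 CPM in MOS, below 57.9 CPM in OSapop and 70.5 CPM in UOS. For *Lama3*, *Itga6* and *Itgb1* the highest group overlapped, within counting error, the next one, which was of another stage. The share of all genes that were highest in a CatVII group was not counted.

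**Figure D1:**
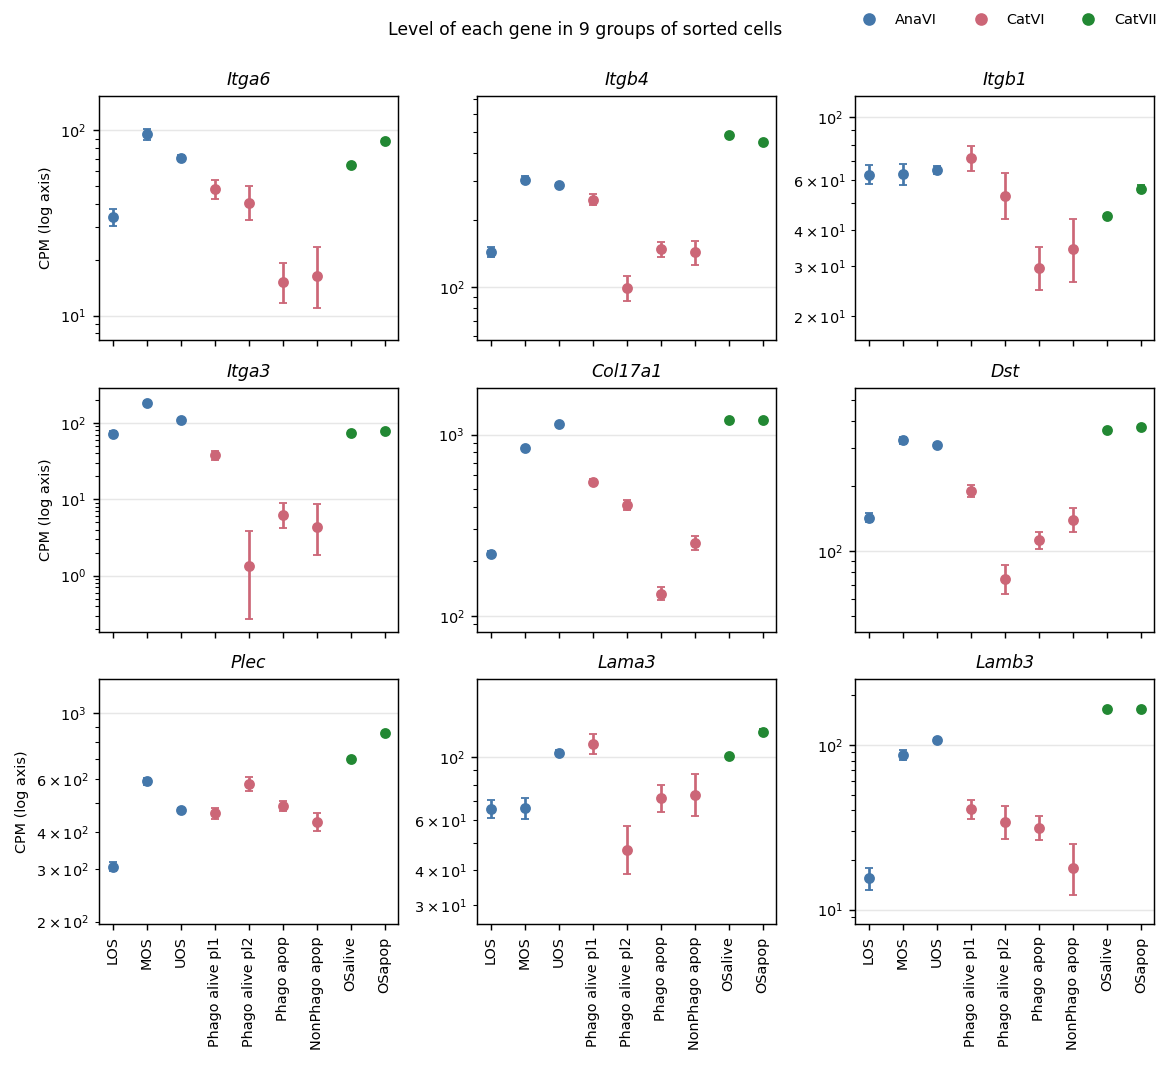
Level of each gene (CPM, log axis) in the 9 groups, with points coloured by stage and bars showing exact 95% limits of counting error. The CatVI points lie below UOS and CatVII for *Col17a1*, *Lamb3*, *Itga6*, *Itgb4*, *Dst* and *Itga3*, whereas *Plec* in the 4 CatVI groups stays between 432.6 and 576.7 CPM. In Phago alive plate 2, 1 cell gave 73.3% of the *Plec* counts.

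*Col17a1* was at 1209 CPM in OSalive, 1203 CPM in OSapop, 1138 CPM in UOS and 839.9 CPM in MOS. It was at 550.1 CPM in Phago alive plate 1, 408.9 CPM in plate 2, 253.3 CPM in NonPhago apop, 219.8 CPM in LOS and 132.8 CPM in Phago apop. OSalive and OSapop overlapped within counting error, and every other neighbour in this order was separate. A count was found in every cell of MOS, UOS, OSalive and OSapop, in 79.5% of LOS cells (interval 63.5 to 90.7%) and in 66.7% of Phago apop cells (38.4 to 88.2%). Over single cells the median was 1394 CPM in UOS and 1260 CPM in OSalive, against 215.5 CPM in LOS and 23.4 CPM in Phago apop. One cell gave 84.2% of the *Col17a1* counts of Phago alive plate 2.

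For the α6β4 integrin, *Itgb4* was at 481.7 CPM in OSalive, 449.9 CPM in OSapop, 304.4 CPM in MOS and 288.6 CPM in UOS, where MOS and UOS overlapped. It was at 247.1 CPM in Phago alive plate 1, 147.9 CPM in Phago apop, 143.7 CPM in LOS, 142.9 CPM in NonPhago apop and 98.5 CPM in Phago alive plate 2. Phago apop, LOS and NonPhago apop overlapped. *Itga6* was at 94.8 CPM in MOS, 86.8 CPM in OSapop, 71 CPM in UOS, 64.6 CPM in OSalive, 48 and 40.6 CPM in Phago alive plates 1 and 2, 33.9 CPM in LOS, 16.3 CPM in NonPhago apop and 15.1 CPM in Phago apop. MOS overlapped OSapop, the Phago alive plates overlapped each other, and plate 2 overlapped LOS. The 2 apop plates of CatVI thus had the lowest *Itga6* RNA among cells selected for its protein, and 7 of 15 and 7 of 14 of their cells had a count. Per transcript length, *Itga6* was 0.347 times *Itgb4* in UOS (interval 0.336 to 0.358), 0.189 times in OSalive (0.187 to 0.192) and 0.144 times in Phago apop (0.111 to 0.185).

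For the α3β1 integrin, *Itga3* had the widest range of the 9 genes. It was at 183.98 CPM in MOS, 107.2 CPM in UOS, 78.4 CPM in OSapop, 73.7 CPM in OSalive and 71.8 CPM in LOS, where the last 2 overlapped. In CatVI it was at 37.9 CPM in Phago alive plate 1, 6.23 CPM in Phago apop, 4.35 CPM in NonPhago apop and 1.32 CPM in Phago alive plate 2, where the last 3 overlapped only as neighbours. The 1.32 CPM rest on 3 counts in 1 cell. A count was found in 9 of 19 cells of Phago alive plate 1, 1 of 9 of plate 2, 1 of 15 of Phago apop and 3 of 14 of NonPhago apop, against 98.2% of cells in UOS and 94.4% in OSalive. Its partner *Itgb1*, which pairs with many α chains, varied least, from 29.4 CPM in Phago apop to 71.7 CPM in Phago alive plate 1, or 2.44-fold. It was at 65.2 CPM in UOS, 63.1 CPM in MOS and 62.7 CPM in LOS, which overlapped, then at 56 CPM in OSapop, 53 CPM in Phago alive plate 2, 44.8 CPM in OSalive and 34.2 CPM in NonPhago apop, which overlapped Phago apop. Per transcript length, *Itga3* was 1.66 times *Itgb1* in both UOS and OSalive, and 0.534 times in Phago alive plate 1 (interval 0.449 to 0.634).

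Among the plakins, which hold keratin filaments, *Plec* was at 858.2 CPM in OSapop, 699.4 CPM in OSalive, 591.5 CPM in MOS, 576.7 CPM in Phago alive plate 2 and 488.5 CPM in Phago apop. It was at 474.3 CPM in UOS, 460.8 CPM in Phago alive plate 1, 432.6 CPM in NonPhago apop and 305.5 CPM in LOS. MOS overlapped Phago alive plate 2, where 1 cell gave 73.3% of the *Plec* counts. Over single cells the *Plec* median was 510.6 CPM in UOS and 306.4 and 243.2 CPM in Phago alive plates 1 and 2. It was 486 CPM in Phago apop and 517 CPM in NonPhago apop. Phago apop, UOS, Phago alive plate 1 and NonPhago apop overlapped as neighbours, and the 15 cells of Phago apop all had a count. *Dst* was at 377.2 CPM in OSapop, 366.1 CPM in OSalive, 327.0 CPM in MOS, 311.5 CPM in UOS, 190.5 CPM in Phago alive plate 1, 142.9 CPM in LOS, 139.7 CPM in NonPhago apop, 113.01 CPM in Phago apop and 74.2 CPM in Phago alive plate 2. MOS overlapped UOS, and LOS, NonPhago apop and Phago apop overlapped as neighbours. Its order followed that of *Itgb4* closely, with a Pearson r of 0.96 across the 9 groups on log2(CPM + 1).

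The laminin chains differed from each other. *Lamb3* was at 165.5 CPM in OSalive and 164.5 CPM in OSapop, which overlapped, 107.3 CPM in UOS, 86.6 CPM in MOS, 40.7 and 34 CPM in Phago alive plates 1 and 2, 31.4 CPM in Phago apop, 17.9 CPM in NonPhago apop and 15.5 CPM in LOS. The 3 Phago groups overlapped as neighbours, and so did NonPhago apop and LOS. *Lama3* was at 123.5 CPM in OSapop, 111.8 CPM in Phago alive plate 1, 103.96 CPM in UOS and 100.996 CPM in OSalive, then at 73.9 CPM in NonPhago apop, 71.6 CPM in Phago apop, 66.1 CPM in MOS, 65.8 CPM in LOS and 47.2 CPM in Phago alive plate 2. The first 4 overlapped as neighbours, and so did the next 4. Per transcript length, *Lama3* was 0.278 times *Lamb3* in OSalive (interval 0.274 to 0.282) and 0.442 times in UOS (0.428 to 0.457). The order was turned in LOS at 1.94 times (1.63 to 2.31), in NonPhago apop at 1.88 times (1.28 to 2.84) and in Phago alive plate 1 at 1.25 times (1.07 to 1.47), and in Phago apop the ratio was 1.04 (0.852 to 1.28).

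**Figure D2:**
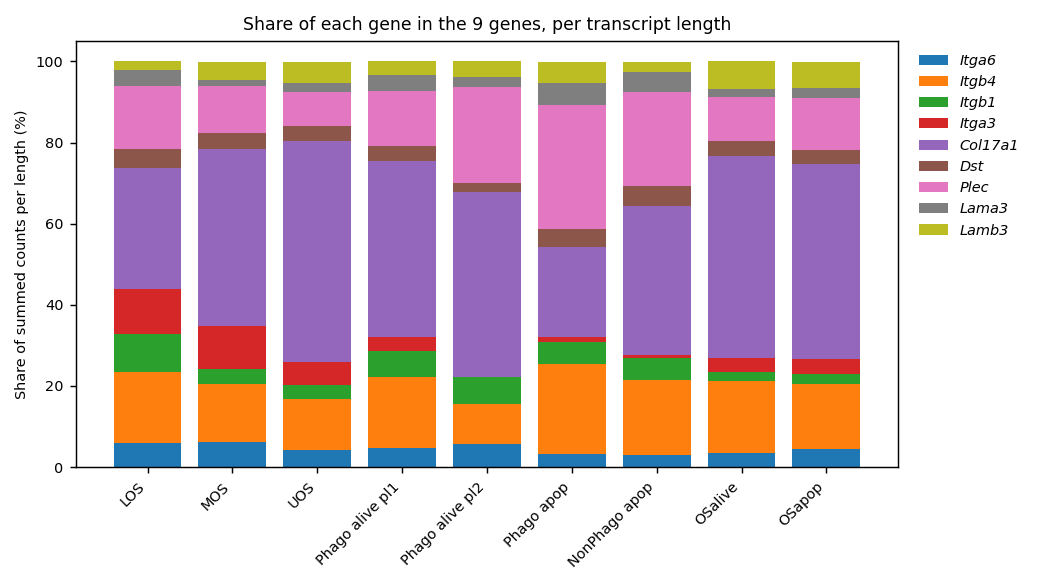
Share of each gene in the summed counts per transcript length of the 9 genes (stacked bars adding to 100%, 1 bar per group). *Col17a1* is the largest share in 8 of 9 groups, and in P17f Phago apop *Plec* is larger.

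Per transcript length, *Col17a1* made up 54.5% of the 9 genes in UOS, 50% in OSalive, 48.1% in OSapop, 43.6% in MOS and 29.9% in LOS. In CatVI it made up 43.5% and 45.6% in Phago alive plates 1 and 2, 36.6% in NonPhago apop and 22.2% in Phago apop. There *Plec* led with 30.4%, and *Itgb4* equalled *Col17a1* at 22.2%. *Itgb4* was next to *Col17a1* in the 5 groups of AnaVI and CatVII and in Phago alive plate 1. It made up 12.4% in UOS, 17.9% in OSalive and 17.5% in Phago alive plate 1. In Phago alive plate 2 and NonPhago apop *Plec* was next, with 23.9% and 23.3%. *Itga3* made up 10.7% in MOS, 5.78% in UOS, 3.43% in OSalive and 0.166% in Phago alive plate 2.

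**Figure D3:**
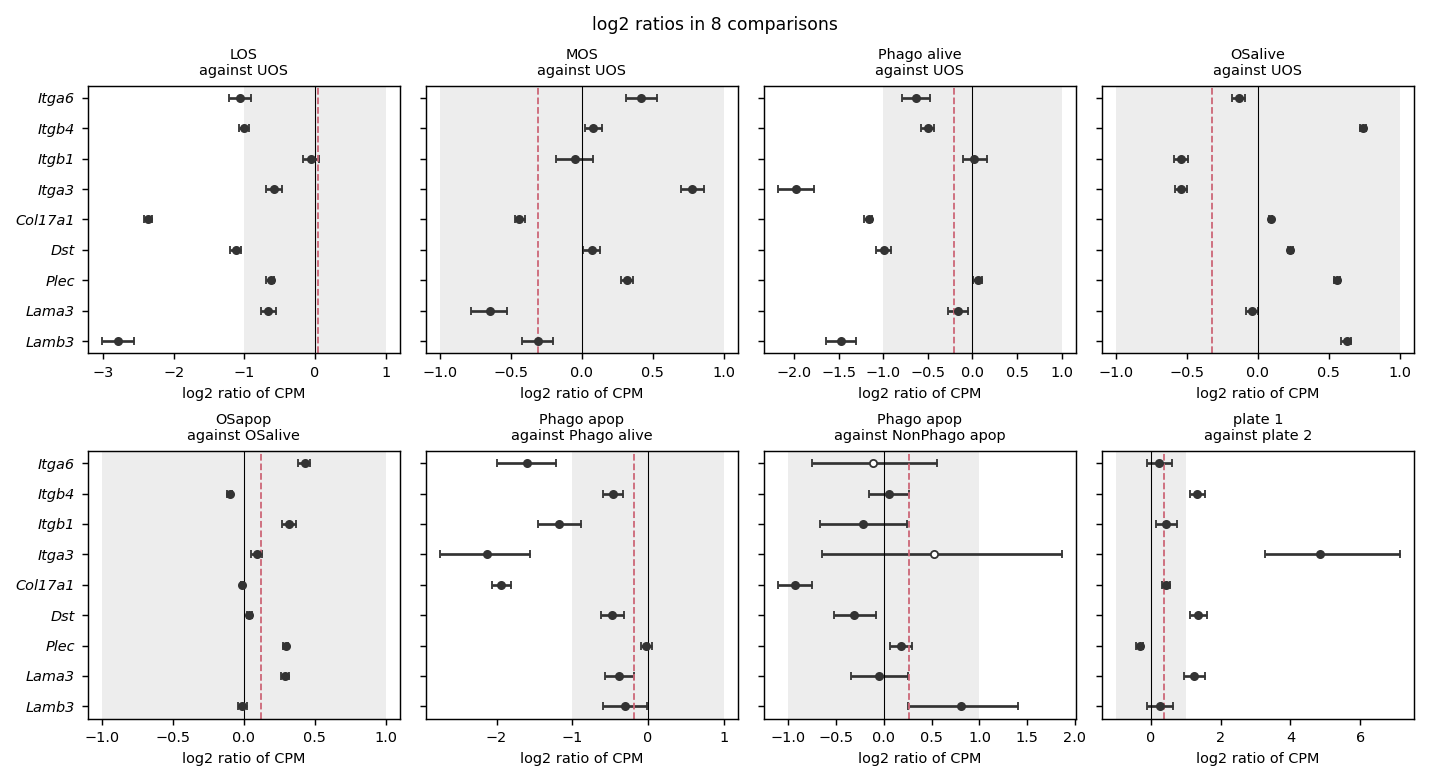
log2 ratio of CPM for each gene in 8 comparisons (points, with bars for exact 95% counting intervals). The grey band marks differences under 2-fold, the dashed line the median of all genes with enough counts, and open points genes with under 100 counts. The points of LOS against UOS lie left of the dashed line for all 9 genes.

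The first comparison set the lower against the upper-middle ORS of late anagen. All 9 genes were lower in LOS than in UOS, with log2 ratios from −2.79 to −0.06 and a median of −1.01, beside a median of 0.04 over 11473 genes with at least 100 counts in the pair. Of the 9, 5 were lower by 2-fold or more and 0 higher, beside 14.3% of all genes lower and 14.1% higher. *Lamb3* was lower by a log2 ratio of −2.79 (interval −3.02 to −2.57) and *Col17a1* by −2.37 (−2.43 to −2.31). *Dst*, *Itga6* and *Itgb4* had ratios of −1.12, −1.07 and −1.01, close to the 2-fold limit. *Lama3* at −0.66, *Plec* at −0.63 and *Itga3* at −0.58 fell short of it, and the interval of *Itgb1* held 0 (−0.17 to 0.06). In LOS 1 cell gave 54% of the *Itgb1* counts. Fibroblast markers were higher in LOS, as given above, and immune, melanocyte and endothelial markers summed to 24.7, 131.6 and 51.9 CPM there against 1.51, 11 and 6.82 CPM in UOS. In the 18 LOS cells with under 100 CPM for all these markers together, compared with the 95 such UOS cells, *Lamb3* was at −3.21, *Col17a1* at −1.89 and *Itga6* at −1.39. *Dst*, *Itgb1*, *Plec*, *Itgb4*, *Lama3* and *Itga3* were then at −0.94, −0.83, −0.48, −0.47, −0.38 and −0.19, which left 3 genes lower by 2-fold, beside 22.8% of all genes lower and 13.5% higher in these cells. In summed counts, fewer cells of a type and less RNA per cell cannot be told apart. A *Lamb3* count was found in 41% of LOS cells (interval 25.6 to 57.9%) and 95.5% of UOS cells (89.9 to 98.5%), at median depths of 108598 and 471277 counts per cell.

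Among other hemidesmosome genes, those lower by 2-fold or more in LOS included *Col7a1* at −5.95, which forms the anchoring fibrils under the basement membrane, and the keratins *Krt14* at −1.59 and *Krt5* at −1.23, which also stand in the list of ORS markers. *Cd151*, a tetraspanin partner of α3β1 and α6β4, was at −0.20. Of 17 basement membrane genes, 4 were lower and 3 higher by 2-fold. *Npnt*, *Col4a6* and *Egfl6* were lowest at −3.58, −1.51 and −1.25, and the nidogens *Nid1* and *Nid2* and the laminin β2 chain *Lamb2* highest at 4.16, 2.62 and 1.56. Of 15 other integrin and focal adhesion genes with enough counts, 3 were lower and 1 higher, with *Itgb8*, *Itgb6* and *Itga2* at −2.81, −2.29 and −1.14, and *Fermt2*, *Lims1* and *Ilk* at 1.80, 0.74 and 0.23.

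MOS and UOS share their region label. None of the 9 genes differed between them by 2-fold, where 23.2% of 11114 genes were lower in MOS and 6.56% higher. With median-of-ratios scaling, which brings the median of all genes to about 0, these shares were 17.1% and 11%, and *Itga3* passed 2-fold at 1.07. The 9 genes had a median ratio of 0.07, beside −0.31 for all genes. *Itga3*, at 183.98 against 107.2 CPM, was highest with a ratio of 0.78 (0.70 to 0.86), and *Lama3* was lowest at −0.65 (−0.78 to −0.53). The *Itga3* ratio fell to 0.16 when cells were thinned to 50000 counts, and 1 MOS cell gave 26.5% of its MOS counts. Over single cells the *Itga3* median was 113.6 CPM in MOS and 103.1 CPM in UOS. *Col17a1* was at −0.44 (−0.47 to −0.40). *Col7a1* was lower in MOS at −1.35, and *Cd151* was at 0.08. Of 16 basement membrane genes with enough counts 4 were lower in MOS and 2 higher, with *Nid1*, *Frem1* and *Npnt* at −3.17, −2.70 and −1.30, and *Egfl6*, *Hspg2* and *Lamb2* at 1.13, 1.06 and 0.98.

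The comparison of CatVI with late anagen took both Phago alive plates together against UOS. The region label changed with the stage, from upper-middle ORS in UOS to upper ORS in the plates. Of the 9 genes 3 were lower by 2-fold, *Itga3* at −1.98 (−2.18 to −1.78), *Lamb3* at −1.47 (−1.64 to −1.30) and *Col17a1* at −1.16 (−1.21 to −1.12). Over 11281 genes 28.3% were lower and 14.9% higher, so the share of these genes was close to that of all genes. *Dst* at −0.99 lay at the limit, *Itga6* was at −0.63 and *Itgb4* at −0.50. *Plec*, *Itgb1* and *Lama3* were at 0.06, 0.02 and −0.16. When each cell had the same weight, *Plec* was at −0.53. *Col7a1* was lower at −2.32, and *Cd151* was at 0.48. The *Col7a1* counts were 29 in plate 1 and 329 in plate 2, where 1 cell gave 94.8% of them. Of 16 basement membrane genes 6 were lower and 3 higher, among them *Egfl6* and *Col4a1* at −1.88 and −1.77, and *Frem2*, *Hspg2* and *Lamb1* at 1.64, 1.35 and 1.26. *Frem1* was at 0 counts in the Phago alive plates. Of 15 other integrin and focal adhesion genes 5 were lower and 1 higher, with *Parva* and *Zyx* at −2.51 and −1.92, *Itgb6* at 0 counts against 1777 in UOS, and *Itga2* at 1.60. The 2 plates carry the same label, and between them 4 of the 9 genes differed by 2-fold, all higher in plate 1: *Itga3* by 4.84 (3.27 to 7.13), *Dst* by 1.36, *Itgb4* by 1.33 and *Lama3* by 1.24. Over 3791 genes 32.5% were higher in plate 1 and 12.8% lower, and with median-of-ratios scaling 23.6% and 20.4%, where only *Itga3* among the 9 genes stayed past 2-fold, at 4.46. With plate 2 as the only CatVI plate, 6 of the 9 genes were lower than in UOS by 2-fold, beside 39% of all genes, and with plate 1 alone 3 were, beside 32.1%. *Itga3* was at −6.34 with plate 2 alone, with 3 counts, and at −1.50 with plate 1 alone, both outside the interval given. The mitochondrial share of counts was 9.42% in plate 2 and 3.30% in plate 1, melanocyte markers summed to 151.02 and 2.01 CPM, and endothelial markers to 0 and 41 CPM. The part of these in the differences was not tested.

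The comparison of late catagen with late anagen also changed the region label, from upper-middle ORS in UOS to upper ORS in OSalive. None of the 9 genes differed between OSalive and UOS by 2-fold, where 26.6% of 14159 genes were lower in OSalive and 11.5% higher. With median-of-ratios scaling these shares were 19.5% and 16%, and *Itgb4* passed 2-fold at 1.07. With annotated genes as the total, where they were 18.7% and 16.9%, *Itgb4* passed at 1.11 and *Lamb3* lay on the limit and was counted. The 9 genes had a median of 0.09, beside −0.32 for all genes, and 7 of them lay above that median. *Itgb4* at 0.74 (0.72 to 0.76), *Lamb3* at 0.63 (0.59 to 0.66) and *Plec* at 0.56 (0.54 to 0.58) were highest. *Itgb1* and *Itga3*, the chains of α3β1, were both at −0.54. *Itga6* was at −0.13 and *Col17a1* at 0.09. *Itga6* turned to 0.24 when only annotated genes made up the total, and *Col17a1* turned to −0.11 when each cell had the same weight. Among the other hemidesmosome genes, *Krt14* was lower at −1.31, whereas *Krt5*, *Cd151* and *Col7a1* were at 0.39, 0.43 and 0.33. Of 17 basement membrane genes 5 were lower, among them *Frem1*, which had 0 counts in OSalive, and *Col4a1* and *Lamb1* at −1.68 and −1.49, while *Frem2*, *Fras1* and *Npnt* stood highest at 0.93, 0.90 and 0.63. Of 16 other integrin and focal adhesion genes 3 were lower, *Itga5*, *Zyx* and *Parva* at −1.27, −1.15 and −1.07, and 2 were higher, *Itgb3* and *Itga2* at 1.95 and 1.20.

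**Figure D4:**
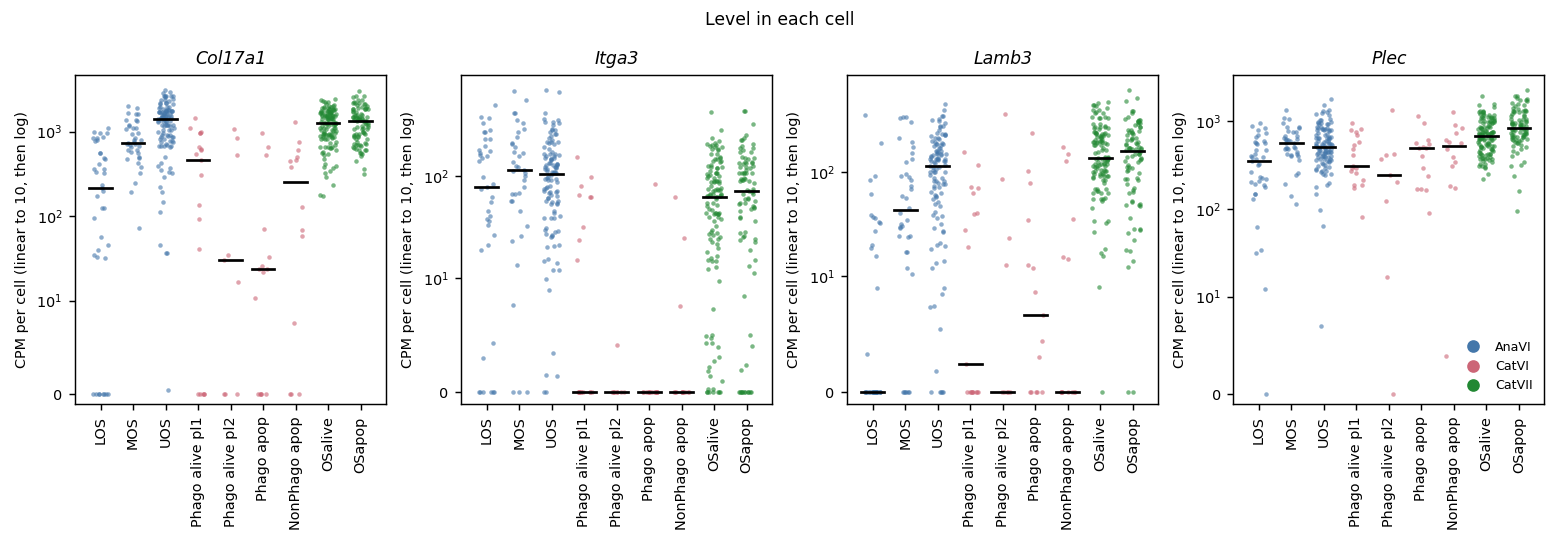
CPM of *Col17a1*, *Itga3*, *Lamb3* and *Plec* in each cell (1 point per cell, black lines for medians, axis linear to 10 and logarithmic above). The *Itga3* median is 0 in all 4 CatVI groups, where most points lie on the axis, and 61.7 CPM or more in the other groups.

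The sorts named alive and apop were compared at both catagen stages, first at CatVII. None of the 9 genes differed by 2-fold between OSapop and OSalive, where 10.6% of 13886 genes were higher in OSapop and 11.3% lower. *Itga6* at 0.43 (0.38 to 0.47), *Itgb1* at 0.32, *Plec* at 0.30 and *Lama3* at 0.29 lay above the median of 0.12 for all genes. *Col17a1* and *Lamb3* were both at −0.01 with intervals that held 0. *Col7a1* was at 0.19 and *Cd151* at 0.14. Of 16 basement membrane genes 2 were lower, *Nid2* and *Nid1* at −2.30 and −1.23, and none higher.

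At CatVI all 9 genes had a ratio below 0 between Phago apop and the Phago alive plates, and 4 were lower by 2-fold: *Itga3* at −2.13 (−2.75 to −1.56), *Col17a1* at −1.94 (−2.06 to −1.81), *Itga6* at −1.60 (−1.99 to −1.22) and *Itgb1* at −1.17 (−1.46 to −0.89). Over 5260 genes 22% were lower and 10.8% higher, with a median of −0.19, and with median-of-ratios scaling 17.9% and 14.4%, where *Itgb1* was at −0.99 and *Plec* at 0.17. *Plec* at −0.02 had an interval that held 0, and *Lamb3*, *Lama3*, *Itgb4* and *Dst* were between −0.47 and −0.30. All 28 *Itga3* counts of Phago apop came from 1 cell. Against plate 2 alone *Itga3* turned to 2.23, with 3 counts in that plate, and *Dst*, *Itgb4* and *Lama3* turned to 0.61, 0.59 and 0.60. With that plate alone, 16.9% of all genes were lower and 26.4% higher. *Lamb3* turned to 0.41 and *Lama3* to 0.13 when cells were thinned to 50000 counts. The call for *Itgb1* was also lost against plate 2 alone, at −0.85. *Col7a1* at −5.11, with 6 counts in Phago apop, was lower, while *Krt14* at 2.09 and *Krt5* at 1.17 were higher. The alive level of *Col7a1* rests mostly on 1 cell, which gave 94.8% of the counts of plate 2. *Col7a1* was at 145.3 CPM in plate 2, 5.29 CPM in plate 1 and 1.33 CPM in Phago apop. Of 13 basement membrane genes with enough counts 8 were lower and 1 higher, with *Frem2*, *Col4a2* and *Lamc1* at −3.63, −3.47 and −3.35, and *Fras1*, *Col4a6* and *Col4a5* at 1.85, 0.49 and 0.48. Of 11 other integrin and focal adhesion genes 3 were lower and 2 higher, with *Pxn*, *Vcl* and *Itga2* at −2.30, −1.23 and −1.16, and *Itgb5*, *Itgb8* and *Ilk* at 1.66, 1.33 and 0.21. Of 5 enzymes that shed or process such proteins, *Mmp14* at −2.37 and *Bmp1* at −1.21 were lower, and *Adam17*, *Adam10* and *Adam9* were at −0.94, 0.01 and 0.72.

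Between the 2 apop plates of CatVI, 7 of the 9 genes had at least 100 counts in the pair, *Itga6* having 68 and 30 counts in them and *Itga3* 28 and 8. None of the 7 differed by 2-fold, where 22.9% of 2838 genes were higher in Phago apop and 7.65% lower, and with median-of-ratios scaling 16.3% and 11.7%. *Col17a1* was nearest to it, at 132.8 CPM in Phago apop and 253.3 CPM in NonPhago apop, a ratio of −0.93 (−1.11 to −0.75). *Lamb3*, at 31.4 and 17.9 CPM, had a ratio of 0.81 with a wide interval (0.25 to 1.4). The *Lamb3* ratio turned to −0.14 when each cell had the same weight and was 1.78 in cells with at least 3000 detected genes. *Col17a1* passed 2-fold at −1.18 with median-of-ratios scaling. *Cd151* was higher in Phago apop at 1.84. Of 12 basement membrane genes with enough counts 7 were lower and 1 higher, with *Lamc1*, *Frem2* and *Col4a2* at −3.10, −2.70 and −2.33, and *Col4a5* at 1.60.

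**Figure D5:**
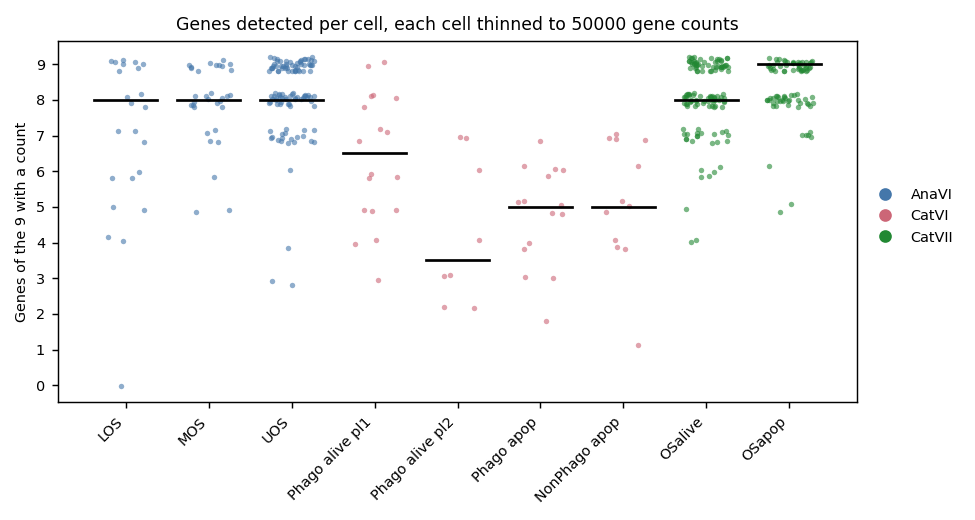
Number of the 9 genes with a count in each cell after each cell was thinned to 50000 gene counts (1 point per cell with a small random shift, black lines for medians). Medians are 8 or 9 in AnaVI and CatVII and between 3.5 and 6.5 in CatVI. Of 39 LOS cells, 16 were shallower and are left out.

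When every cell was thinned to 50000 gene counts, the median cell had 8 of the 9 genes in LOS, MOS, UOS and OSalive and 9 in OSapop. It had 6.5 in Phago alive plate 1, 3.5 in plate 2 and 5 in both apop plates. All 9 genes were found in 51 UOS cells, 51 OSalive cells and 44 of 85 OSapop cells, in 2 of 18 cells of Phago alive plate 1 and in 0 of 8, 15 and 12 cells of plate 2, Phago apop and NonPhago apop. Without thinning the medians were 9 in MOS, UOS, OSalive and OSapop, 7 in LOS and 4 to 7 in CatVI. Thinning left out 16 of 39 LOS cells, 6 MOS cells, 7 OSapop cells and at most 2 cells of any other group. At 20000 counts, which kept 36 LOS cells, the median was 6 in LOS, 7 in MOS and OSalive and 8 in UOS and OSapop. It was then 5 and 4 in Phago alive plates 1 and 2, 4 in Phago apop and 5 in NonPhago apop. In the cells thinned to 50000 counts *Plec* was found in at least 91.7% of every group. *Itga3* was found in 87.4% of UOS and 76.6% of OSalive cells, in 44.4% of Phago alive plate 1, in 0 of 8 cells of plate 2 (interval up to 36.9%), in 6.67% of Phago apop and in 8.33% of NonPhago apop. *Lamb3* was found in 89.2% of UOS and 96.0% of OSalive cells, in 43.5% of LOS and in 25 to 44.4% of the CatVI plates.

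Across the 9 groups, the gene most like *Itga6* was *Abi3bp* (r = 0.958, among 4897 genes with a symbol and at least 20 CPM in a group), most like *Itgb4* *Tmem43* (0.980), most like *Itgb1* *Cdc37* (0.979) and most like *Itga3* *Itm2c* (0.986). *Krt80* was among the genes most like *Col17a1* (0.961). The closest to *Dst* was *Raly* (0.972), to *Plec* *Col8a2* (0.938), to *Lama3* *Thra* (0.968) and to *Lamb3* *Lmna* (0.973). Among the members, *Col17a1* was most like *Itga6* (0.91) and *Lamb3* (0.90), and *Plec* and *Itgb1* were least alike (−0.04). These are Pearson r of log2(CPM + 1) over 9 points that share stage and plate, given without a test.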

How the data were processed

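Single cells were sorted into plates and amplified from poly(A) RNA as full-length cDNA, and wells with several cells were sought by qPCR for *Gapdh*, so no doublet caller was run. The submitters' processing notes name STAR 2.6, Salmon 1.4.0, R 3.6.1 and the mm39 build. The deposited values are estimated counts per gene and cell, of which 0.471% were not whole, and they were rounded to whole counts before use. Here, 92 spike-ins were left out, cells were kept from 2000 detected genes upward, and counts were summed per group. 1 gene identifier, ENSMUSG00000106106, took 56.3 to 66.5% of the counts of every group, so CPM of all other genes are relative to a total that it dominates. Groups followed the titles, region and stage in the labels. The 2 Phago alive plates carry 1 label and were summed in comparisons unless named.

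Levels had exact Poisson limits, shares of cells exact binomial limits, and log2 ratios of CPM the exact binomial interval of the counts. A count of 0 was set to the floor of 3 counts in a ratio. Genes with 100 or more counts over both groups were compared, and 2-fold was the limit for calling a difference. With 1 sample per group no p-value was computed. Intervals came from scipy 1.17.1 under Python 3.11.15, and tables from pandas 2.3.3. Level per length divides CPM by the canonical GENCODE transcript in kb. Thinning drew 50000 counts per cell, or 20000 where named. On simulated counts for OSalive against UOS, with 14159 genes and 200 of them changed, the sign was right for 199, and 95.0% of the intervals included the simulated ratio. The intervals cover counting error only, so this share does not extend to differences between plates or animals. Besides all 9 genes, the text names up to 3 genes at each end of the fixed pathway lists, and it leaves out *Eppk1*, which was not matched to a row. 1 further gene of these lists is not reported here. The genes and lists were chosen with earlier results of these data known. Alternatives changed the total, the scaling, the weight of cells, the detected-gene and count minimums, the depth, the deepest cell, the reference and the plate.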

Additional observations from a re-analysis of the deposited data

Results flagged for a closer look

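The ratio of apop to alive cells had opposite signs in CatVI and CatVII for 5 of the 9 genes, each with a counting interval that left out 0 at both stages. The medians of all genes also had opposite signs, −0.19 at CatVI and 0.12 at CatVII. How many of all genes changed sign was not counted, so the 5 cannot be read as particular to these genes. On the log2 scale, the CatVII ratio minus the CatVI ratio was 2.22 for *Itga3*, 2.02 for *Itga6*, 1.5 for *Itgb1*, 0.67 for *Lama3* and 0.51 for *Dst*. The difference was not tested, since each group is 1 sample, and the sorts at the 2 stages do not carry the same names. Without Phago alive plate 1, the CatVI ratio was 2.23 for *Itga3*, 0.61 for *Dst* and 0.60 for *Lama3*, so for these 3 genes the opposite sign is lost, whereas *Itga6* and *Itgb1* stayed below 0 at −1.43 and −0.85. At CatVII, the *Dst* ratio turned to −0.11 without cells with markers of other cell types. The *Itga3* ratio turned to −0.04 there with annotated genes as the total.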

How the results depend on the processing

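No paired analysis was possible because no test between groups was made and the groups compared are 1 sample each. Of 711 values of single genes under the alternatives, 397 lay within the interval of the reported value, 313 outside it, and 1 called value turned its sign, *Itga3* in Phago apop against Phago alive, at 2.23 without plate 1 and −2.61 without plate 2. Of 16 calls, 7 held under every alternative tried: *Col17a1* and *Lamb3* in LOS against UOS, *Itga3* and *Lamb3* in Phago alive against UOS, *Itga6* and *Col17a1* in Phago apop against Phago alive, and *Itga3* between the plates. In LOS against UOS 3 rather than 5 genes were lower by 2-fold at 50000 counts per cell, beside 11.8% of all genes, and 3 without cells with markers of other cell types, beside 22.8%, an alternative chosen after seeing the data. With median-of-ratios scaling over the 2 groups compared, the number was 1 in MOS against UOS, 1 in OSalive against UOS, 1 in Phago apop against NonPhago apop and 1 between the Phago alive plates. With annotated genes as the total it was 2 in OSalive against UOS and 1 between the apop plates. The latter also had 1 with the mean of cells, with 3000 detected genes and without the deepest cells, which gave 7 between the Phago alive plates, beside 37.2% of all genes higher. Leaving out a plate gave 3 to 6 in Phago alive against UOS, beside 32.1 to 39% of all genes lower. Without length correction *Col17a1* led in 5 groups. The cause was not tested. In CatVI, 9 to 19 cells per group limit every share.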

Other observations

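1 cell passed the minimum of detected genes but was left out of every group because its labels disagree on the stage. It had 52544 gene counts and 2674 detected genes, with *Itgb4* at 70 counts, *Col17a1* at 62, *Plec* at 58, *Dst* at 34, *Lamb3* at 6, *Lama3* at 5, *Itga3* at 4, *Itga6* at 2 and *Itgb1* at 1. The 67 and 57 wells of the P17f NonPhago alive plates held 28660 gene counts in all, and all 9 genes were at 0 there. At that summed depth 3 counts correspond to 104.7 CPM. However, the deepest well, on plate 4, held 22040 of the counts, and no well of that plate had more than 32 detected genes. The median well held 0 gene counts on plate 3 and 71 on plate 4. The counts of 0 therefore do not show that higher levels were absent.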
